A study of Mus musculus with 50 samples.

Results

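Interneuron subtype peptides and markers are the 10 genes Pvalb, Sst, Vip, Npy, Cck, Calb1, Calb2, Reln, Gad1 and Gad2. They were taken as a list of named genes and matched to the deposited gene identifiers by the symbols of GENCODE vM21, which gives 10 of the 55487 genes in the files. All 10 had enough counts in at least 5 libraries to be among the 16330 protein-coding genes tested, although Pvalb and Vip reached that level only after birth. The study asked how loss of 1 working copy of Setd1a, a gene for a histone methyltransferase, alters RNA in the mouse frontal cortex during development. Polyadenylated RNA of bulk tissue was sequenced from 5 wild-type and 5 heterozygous mice at each of 5 ages, E14, E18, P7, P35 and P70, which makes 10 groups and 50 libraries. Total counts ran from 35507165 to 43907318 per library. The heterozygous mice (Setd1a+/-) carried a loss-of-function tm1d allele of a knockout-first design in every cell type, their wild-type controls came from the same crosses of heterozygous males with wild-type females, and no group received a treatment. The methods describe the mice as male and of a mixed C57BL/6NTac and C57BL/6J background, and write E14.5 and E18.5 for the embryos, whereas the labels give C57BL/6NTac alone, E14 and E18. Each age is a separate set of animals, so age cannot be told apart from anything else that differed between the collections.

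Cortical interneurons release GABA, which Gad1 and Gad2 make from glutamate, and they are divided into subtypes by the peptides and calcium-binding proteins they hold. Pvalb marks fast-spiking basket and chandelier cells, Sst marks cells that contact dendrites, and Vip marks cells that mainly inhibit other interneurons, while Npy, Cck, Calb1, Calb2 and Reln each occur in parts of these classes. Most of these cells are born in the ganglionic eminences and migrate into the cortex before birth, but Cck, Calb1 and Reln RNA also occurs in other cortical neurons, Reln in Cajal-Retzius cells among them. In bulk tissue, fewer cells of a type and less RNA per cell cannot be told apart.

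Setd1a itself was not lower in Setd1a+/- cortex at any age by the test. In counts scaled to the TMM-adjusted library size (CPM), Setd1a stood in replicates 1 to 5 at 123, 124, 130.0, 114 and 113 in wild-type and 143, 129.9, 122, 133.03 and 124 in Setd1a+/- libraries at E14. It stood at 89.0, 91.1, 90.1, 81.3 and 95.3 in wild-type and 99.0, 112, 92.3, 99.0 and 108 in Setd1a+/- libraries at E18, and at 69.1, 72.6, 66.8, 67.3 and 67.9 in wild-type and 78.1, 74.6, 72.8, 79.5 and 79.8 in Setd1a+/- libraries at P7. At P35 and P70, wild-type libraries held 77.8 to 87.3 and 77.7 to 87.7 and Setd1a+/- libraries 84.0 to 87.5 and 73.0 to 93.2. At P70 the Setd1a+/- mean was the lower one, at 80.8 against 82.2 CPM (log2 fold change −0.03, edgeR adjusted p = 1.00). All 5 Setd1a+/- values lay above all 5 wild-type values at P7, and the groups overlapped at the other ages. With age as a covariate, Setd1a was higher in Setd1a+/- cortex (log2 fold change 0.10, SE 0.0251, adjusted p = 0.00675), by the quasi-likelihood test of edgeR with Benjamini-Hochberg adjustment over all genes tested. Setd1a (chromosome 7 of GRCm38, 127776670 to 127800122, plus strand) shares 52.3% of its exonic bases with Gm49388 and 9430064I24Rik, fragments on shared bases were counted for each gene, and strand was not used. The count over the whole gene does not check the deleted part, and so does not check the genotype labels.

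Some libraries stood apart before any comparison. Among wild-type embryos, the E14 replicate 5 and E18 replicate 2 libraries had Xist RNA and no more than 11 counts over 4 Y-linked genes, while every one of the other 48 libraries had 27 or fewer Xist counts and 4711 or more Y-linked ones. At E18, choroid plexus markers summed to 12.2 to 234 CPM in wild-type libraries (median 16.1) and to 6.94 to 14.9 CPM in Setd1a+/- libraries. Wild-type replicate 2 at P7 differed from the other 9 libraries of its age in its regional markers. Of all 16330 tested genes, 5087 were above all 9 other libraries in it and 4845 were below them. Of 14 cerebellum and hindbrain markers, a list chosen after seeing the data, 14 were above all 9 other libraries, with a summed level of 564 CPM against 74.3 to 92.5, the most from Cbln1 (171 CPM against 41.7 to 54.1). All 8 choroid plexus markers were above the other libraries, with 612 CPM against 7.43 to 10.5, led by Ttr at 569 CPM against 0 to 0.498. Markers of the medial ganglionic eminence and basal forebrain summed to 545 CPM against 36.8 to 68.3, and nearly all of that was Zic1 at 537 CPM. Of these 8 markers 4 were above, while Nkx2-1 and Lhx8 lay within the range of the other libraries. Glial markers summed to 2294 CPM against 799 to 946, and Mbp, their most abundant gene over all libraries, stood at 681 CPM against 64.1 to 97.9. Cajal-Retzius markers, of which 6 of 7 were above, summed to 292 CPM against 77.4 to 107. Of 10 cortical excitatory markers, 8 were below the other 9 libraries, and the list summed to 1040 CPM against 1595 to 1778. Thalamic and hypothalamic markers, of which 4 of 12 were above and 1 was below, summed to 116 CPM against 42.8 to 54.0. The most came from Tcf7l2 (47.9 CPM against 2.71 to 4.57). Olfactory bulb markers, of which 3 of 8 were below, summed to 36.3 CPM against 40.1 to 314. The defining cerebellar gene En2 was at 52.0 CPM in it against 0 to 0.199, and of all these markers only Lhx8, Ms4a15 and Sim1 were at 0 in it. Among the 10 interneuron genes, 2 (Pvalb and Calb1) were above the other 9 libraries and 3 (Cck, Npy and Vip) below them. These counts are near the shares over all tested genes. Most results at P7 are therefore also given without this library, and the part of other tissue in it was not tested.

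**Figure D1:**
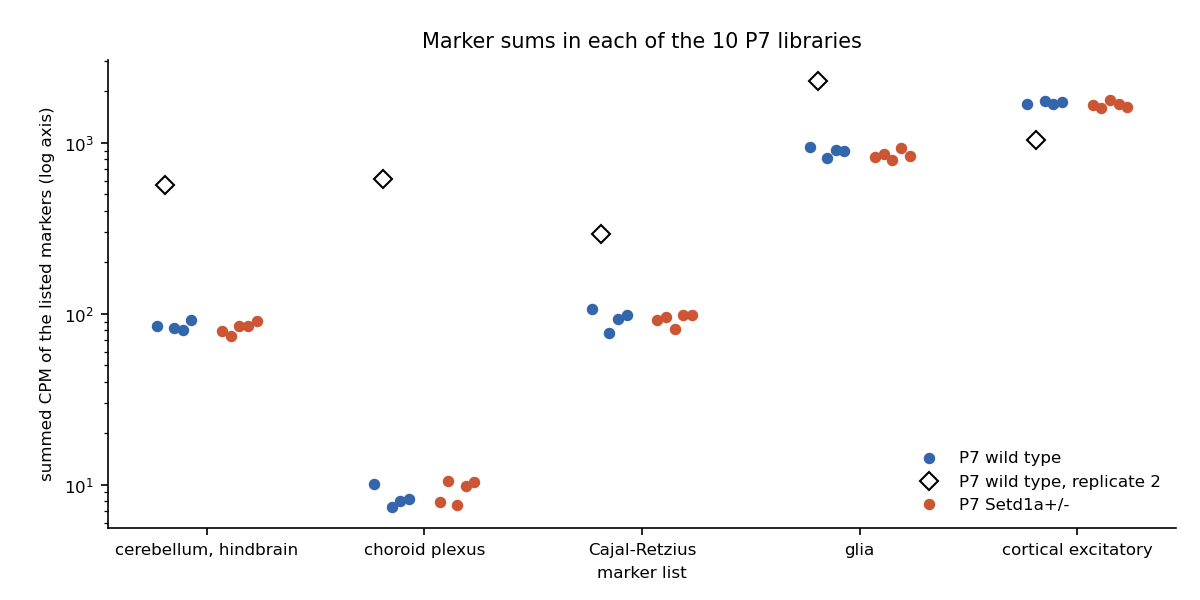
Summed CPM of 5 marker lists (log axis) in the 10 libraries at P7, one point per library, with wild-type replicate 2 as a diamond. That library holds 612 CPM of choroid plexus markers against at most 10.5 in the others, and 1040 CPM of cortical excitatory markers against at least 1595.

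GABAergic genes were present at every age. Slc32a1, the vesicular transporter that loads GABA, had wild-type means from E14 to P70 of 67.5 ± 20.2 CPM (SD, n = 5), 74.8 ± 10.7, 96.5 ± 14.6, 150.0 ± 9.87 and 154 ± 29.4. Gad1 and Gad2, the other defining genes, were above 50 CPM in all 50 libraries. Pvalb and Vip had almost no RNA before birth, so that neither gene measures its subtype at E14 or E18. Whether cells of these subtypes were present then was not tested. Pvalb was also low at P7, at 0.0263 to 0.224 CPM in the 9 libraries other than wild-type replicate 2. Markers of other regions were also present in every group, and the lowest summed level in any library was 202.2 CPM for striatal spiny neurons, 18.9 for the olfactory bulb and 18.7 for the medial ganglionic eminence and basal forebrain.

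Gad1 and Gad2 encode the enzymes that make GABA, a larger form found throughout the cell and a smaller one bound to synaptic vesicles. Gad1 (ENSMUSG00000070880, chromosome 2, 70553072 to 70602014) rose once after birth. In wild-type libraries, E14 values of Gad1 ran from 62.0 to 132.3 CPM, E18 values from 106 to 147, P7 values from 104 to 173, P35 values from 278 to 408 and P70 values from 299 to 401. All P35 and P70 values lay above all earlier ones, and the first 3 ages overlapped. From P7 to P35 its log2 fold change was 1.30 (SE 0.147, edgeR adjusted p = 1.62e-10), and from E14 to E18 it was 0.33 (adjusted p = 0.0412), under the 2-fold difference required of a step between ages. Gad2 (ENSMUSG00000026787, chromosome 2, 22622205 to 22693874) did not follow the same course. It stood at 204.6, 142, 148, 147 and 120.2 in wild-type and 156, 94.6, 138, 137 and 148 in Setd1a+/- libraries at E14, and at 72.3, 71.0, 76.9, 72.8 and 101.9 in wild-type and 91.4, 90.2, 84.4, 114 and 52.4 in Setd1a+/- libraries at E18. It stood at 81.5, 86.4, 61.4, 93.3 and 66.8 in wild-type and 92.0, 80.1, 59.0, 76.6 and 73.7 in Setd1a+/- libraries at P7. All E14 values but 1 lay above all E18 values, and E18 and P7 overlapped. In wild-type libraries, Gad2 held 187 to 221 CPM at P35 and 143 to 245 at P70. The wild-type log2 fold change of Gad2 was −0.95 from E14 to E18 (SE 0.157, edgeR adjusted p = 1.08e-06), just short of 2-fold and called at −1.03 or −1.06 without wild-type replicate 5 at E14 or at E18, and 1.38 from P7 to P35 (SE 0.158, adjusted p = 2.22e-10). The steps from P7 to P35 were 1.32 for Gad1 and 1.42 for Gad2 without wild-type replicate 2 at P7. Per kilobase of exon, Gad1 had the lower mean of the pair at E14 and the higher mean at every later age. The ratio of Gad1 to Gad2 RPKM (CPM per kilobase of exon) in wild-type libraries was 0.491 ± 0.0654 (SD, n = 5) at E14, where it ran from 0.396 to 0.581, and 1.21 ± 0.121 (SD, n = 5) at E18, where it ran from 1.06 to 1.33. The means at P7, P35 and P70 were 1.35, 1.27 and 1.31, with 1.36 at P7 without wild-type replicate 2 (n = 4), and those in Setd1a+/- libraries were 0.506, 1.14, 1.27, 1.10 and 1.19 from E14 to P70. In both genotypes the ratio at E14 lay below that of every later library.

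Sst, Npy, Vip and Cck encode peptide precursors that are cut by prohormone convertases. The coding bases of their best-known peptides are shown because these 4 genes are the peptides of the list. In the coding strand of GENCODE vM21 (GRCm38), the capitals mark the pair of cysteine codons that close the ring of somatostatin, and in the other genes the glycine codon and the pair of basic codons at which the precursor is cut and the peptide amidated.
Sst, chr16:23889732-23889773, minus strand: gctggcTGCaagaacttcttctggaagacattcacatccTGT
Vip, chr10:5644024-5644116, plus strand: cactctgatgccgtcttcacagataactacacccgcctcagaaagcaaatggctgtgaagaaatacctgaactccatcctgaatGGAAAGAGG
Npy, chr6:49823682-49827501, plus strand, 2 exons joined across an intron: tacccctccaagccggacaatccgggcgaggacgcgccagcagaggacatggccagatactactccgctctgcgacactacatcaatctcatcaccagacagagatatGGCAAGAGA
Cck, chr9:121490098-121490130, minus strand: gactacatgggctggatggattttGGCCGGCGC
The stretches hold 14, 28, 36 and 8 codons of peptide, in precursors of 116, 171, 97 and 115 codons. A glycine codon followed by 2 basic codons occurs at 2 places in the Vip coding sequence, at 1 in Npy, at 1 in Cck and at 0 in Sst.

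Stretches upstream of Sst and Vip are shown as examples of genes that hold letters of the cAMP response element and rose from E14 to P70. Cck also held such letters and rose, and its stretch is not shown. Gad2 held them too, but its wild-type mean CPM at P70 was only 1.36-fold that at E14. Npy (5.53-fold), Gad1 (3.52-fold) and Pvalb rose without such letters in the stretches read. Whether the letters bear on the rise was not tested. The core motif searched was TGACG. On the opposite strand it reads CGTCA. Its palindrome TGACGTCA holds the core on both strands. The 250 bases before the start come from RefSeq (GRCm38.p6), with the match in capitals.
Sst, chr16:23890845-23891094, minus strand: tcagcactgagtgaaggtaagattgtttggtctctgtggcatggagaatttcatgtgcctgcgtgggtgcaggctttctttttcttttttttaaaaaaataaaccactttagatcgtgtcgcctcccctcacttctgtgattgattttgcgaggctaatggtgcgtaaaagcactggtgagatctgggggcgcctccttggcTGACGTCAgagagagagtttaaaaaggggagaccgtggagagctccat
Vip, chr10:5638968-5639217, plus strand: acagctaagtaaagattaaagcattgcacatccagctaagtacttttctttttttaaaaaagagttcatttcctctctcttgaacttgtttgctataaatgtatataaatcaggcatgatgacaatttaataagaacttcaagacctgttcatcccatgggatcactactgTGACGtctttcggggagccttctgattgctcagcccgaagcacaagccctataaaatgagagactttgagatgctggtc
The Sst palindrome begins 48 bases before the RefSeq start and the Vip core 79 bases before it. The annotation of GENCODE vM21 extends Sst to 23890958, so that part of the Sst stretch lies inside the gene by that annotation. The set of upstream stretches that was read covers 8 of the 10 genes, with 9 entries since Pvalb has 2, and Calb1 and Calb2 were not searched. The core occurred before 4 of these 8 genes (Sst, Vip, Cck at 47 bases and Gad2 at 33) and the palindrome before 1 of them (Sst). Over the 250 bases before all 32851 starts of that set, 17.8% held the core and 1.55% the palindrome. A match describes letters and does not show that a factor binds there.

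Sst (ENSMUSG00000004366, chromosome 16, 23889573 to 23890958) was the peptide gene with the smallest log2 fold change from E14 to P70. It stood at 52.8, 60.4, 31.2, 26.8 and 20.1 in wild-type and 28.2, 17.5, 66.6, 33.7 and 31.1 in Setd1a+/- libraries at E14, and at 66.8, 36.1, 59.6, 94.3 and 62.6 in wild-type and 72.7, 82.8, 111, 47.2 and 34.5 in Setd1a+/- libraries at E18. It stood at 82.1, 91.2, 107, 103 and 98.9 in wild-type and 118, 103, 104, 94.4 and 91.9 in Setd1a+/- libraries at P7. Libraries of the same group differed up to several-fold at both embryonic ages and by much less from P7 on. Sst then held 154 to 182 CPM in wild-type and 169.9 to 191.8 in Setd1a+/- libraries at P35, and 157.2 to 200.1 and 172 to 192.5 at P70. All values from P35 on lay above all earlier ones. No single step passed 2-fold in wild-type cortex, with log2 fold changes of 0.74, 0.59 and 0.79 from E14 to E18, P7 and P35 in turn (edgeR adjusted p = 0.00864, 0.0321 and 0.00454; the last 2 were 0.60 and 0.77 without wild-type replicate 2 at P7), while from E14 to P70 Sst rose by 2.19 on the log2 scale (SE 0.257, adjusted p = 1.65e-10). Npy (ENSMUSG00000029819, chromosome 6, 49822710 to 49829507) rose most before birth. It stood at 13.1, 15.7, 10.7, 8.51 and 6.10 in wild-type and 7.11, 6.82, 12.0, 8.83 and 7.57 in Setd1a+/- libraries at E14, and at 69.9, 63.8, 53.4, 41.8 and 42.1 in wild-type and 51.0, 51.7, 49.2, 79.6 and 69.1 in Setd1a+/- libraries at E18. It stood at 28.5, 14.2, 36.8, 39.3 and 36.8 in wild-type and 43.3, 38.1, 35.6, 35.5 and 33.9 in Setd1a+/- libraries at P7. All E18 values lay above all E14 values, and all P7 values but 1 lay below all E18 values, with wild-type replicate 2 the lowest. Npy rose from E14 to E18 (log2 fold change 2.33, SE 0.197, edgeR adjusted p = 1.37e-13). It was then −0.80 on the log2 scale from E18 to P7 (SE 0.185, adjusted p = 0.000205) and 0.97 from P7 to P35 (SE 0.186, adjusted p = 1.31e-05), both under 2-fold. Without wild-type replicate 2 these steps were −0.62 and 0.78. At P35 and P70 Npy held 57.9 to 68.0 and 51.2 to 65.9 CPM in wild-type libraries, which overlapped the range at E18.

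Vip (ENSMUSG00000019772, chromosome 10, 5639218 to 5647617) was the lowest of the peptides at E14. It had 0 counts in all 5 wild-type libraries at E14, and 3 counts in all in Setd1a+/- libraries, as 0, 0, 0, 0.0481 and 0.0222 CPM. Vip stood at 0.224, 0.146, 0.382, 0.0917 and 0.0238 in wild-type and 0.199, 0.155, 0.284, 0.387 and 0.380 in Setd1a+/- libraries at E18, which rests on 36 and 57 counts, and at 9.3002, 3.88, 9.06, 6.98 and 8.396 in wild-type and 7.30, 9.47, 10.01, 10.5 and 8.42 in Setd1a+/- libraries at P7. At P35 it held 30.1 to 34.5 CPM in wild-type and 29.3 to 33.8 in Setd1a+/- libraries, and at P70 27.6 to 41.7 and 31.1 to 41.3. The values of E18, P7 and P35 did not overlap with each other, and P35 and P70 did. Against a floor of 3 counts over the group (0.015 CPM), Vip was at least 2192-fold higher at P70 than at E14 in wild-type cortex and at least 11.5-fold higher at E18. It rose from E18 to P7 (log2 fold change 5.42, SE 0.267, edgeR adjusted p = 1.78e-20) and from P7 to P35 (2.12, SE 0.174, adjusted p = 4.82e-14), by 5.58 and 1.96 without wild-type replicate 2 at P7. Cck (ENSMUSG00000032532, chromosome 9, 121489824 to 121495694), whose RNA excitatory neurons also carry, rose at each of the first 3 steps. Cck held 2.61 to 10.1 CPM in wild-type libraries at E14, 17.5 to 28.8 at E18, 333 to 362 at P35 and 326 to 453 at P70. At P7 it stood at 104, 47.3, 122, 106 and 108 CPM in wild-type and 95.3, 93.2, 104, 104 and 96.4 in Setd1a+/- libraries. Wild-type replicate 2 was the lowest, and all P7 values lay above those of E18 and below those of P35. The 3 steps had log2 fold changes of 2.09, 2.14 and 1.83 (edgeR adjusted p = 6.07e-09, 3.14e-10 and 6.89e-09), and from E14 to P70 the log2 fold change was 6.14 (SE 0.3003, adjusted p = 3.52e-23). Without wild-type replicate 2, the steps into and out of P7 were 2.31 and 1.65.

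**Figure D2:**
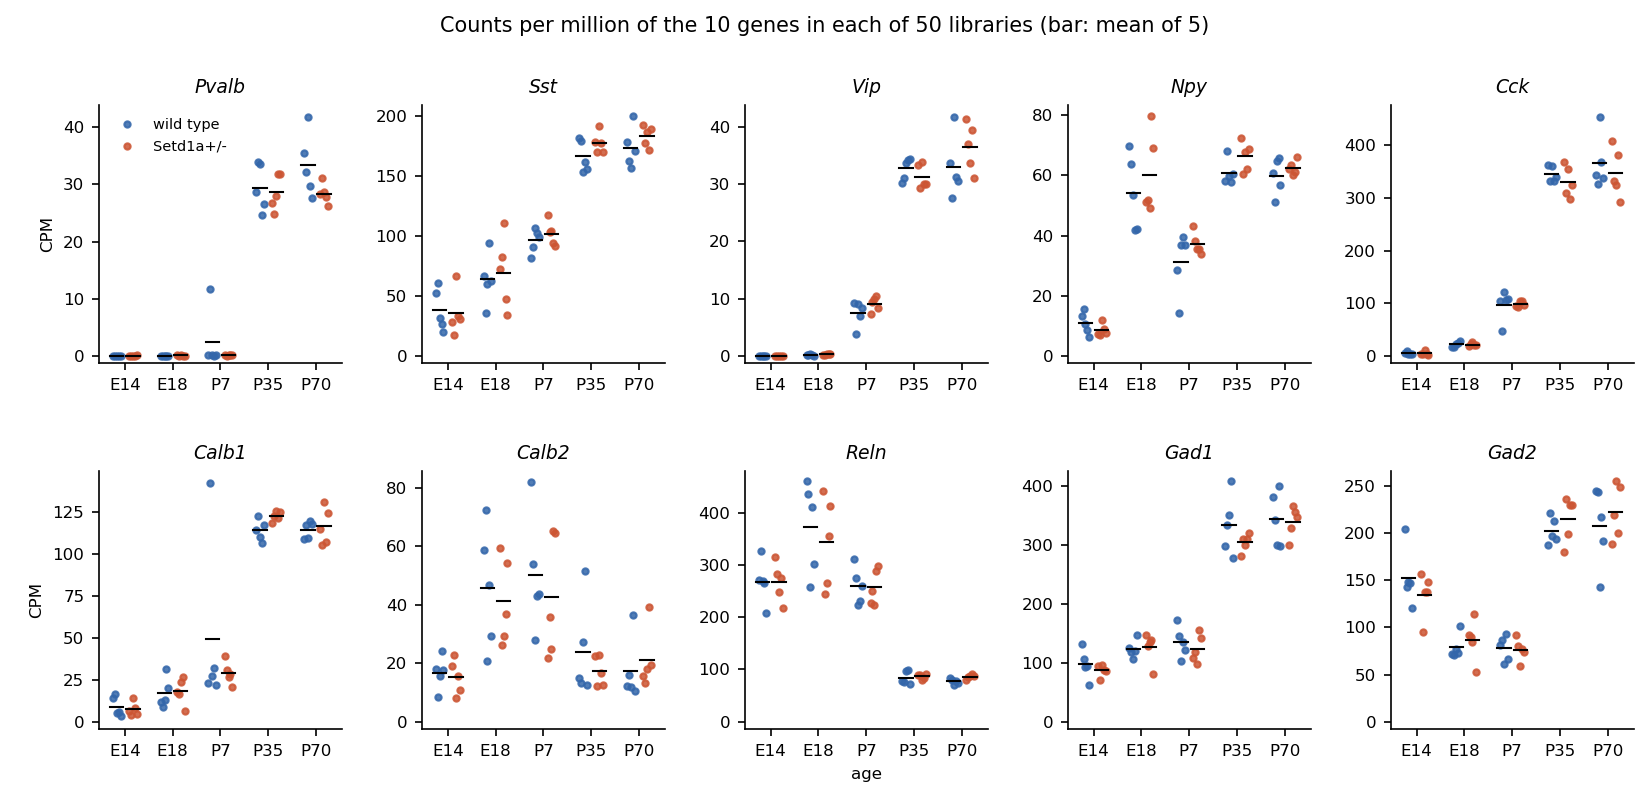
CPM of each of the 10 genes in each of the 50 libraries, by age and genotype, with a bar at the mean of 5. Pvalb in wild-type replicate 2 at P7 stands at 11.7 CPM and Calb1 in the same library at 143 CPM.

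Pvalb, Calb1 and Calb2 encode the calcium-binding proteins parvalbumin, calbindin and calretinin. Pvalb (ENSMUSG00000005716, chromosome 15, 78191114 to 78206400) was near 0 until P7 in all but 1 library. It had 2 counts in wild-type and 7 in Setd1a+/- libraries at E14, and 2 and 13 counts at E18. At P7 it stood at 0.224, 11.7, 0.105, 0.0514 and 0.211 CPM in wild-type and 0.103, 0.0263, 0.0796, 0.209 and 0.125 in Setd1a+/- libraries. Wild-type replicate 2 held 502 of the 525 wild-type counts, and the other 4 libraries overlapped with the Setd1a+/- ones. Pvalb stood at 28.6, 34.0, 33.5, 24.6 and 26.6 in wild-type and 26.8, 24.8, 27.9, 31.8 and 31.8 in Setd1a+/- libraries at P35, and at 35.5, 32.1, 41.8, 29.7 and 27.6 in wild-type and 28.3, 31.1, 28.6, 27.8 and 26.2 in Setd1a+/- libraries at P70. Every value from P35 on lay above every earlier value, that library included. With all libraries, the wild-type log2 fold change from E18 to P7 was 7.62 (SE 1.25, edgeR adjusted p = 8.98e-07), and without wild-type replicate 2 it was 3.56 (SE 0.771, adjusted p = 8.47e-05), on 2 counts against 23, a ratio of 15.5 with a 95% exact counting interval of 3.82 to 135. In Setd1a+/- cortex the same step ran from 13 to 21 counts, a ratio of 1.68 (0.804 to 3.66), and was not called. The step from P7 to P35 had a wild-type log2 fold change of 3.55 (SE 0.539, edgeR adjusted p = 1.72e-07) with all libraries and 7.61 (SE 0.266, adjusted p = 3.07e-27) without replicate 2, and 7.997 in Setd1a+/- cortex (adjusted p = 3.64e-12). As a ratio of CPM, the step was 199 without that library (132.5 to 314) and 263 in Setd1a+/- cortex (172 to 424).

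Calb1 (ENSMUSG00000028222, chromosome 4, 15881264 to 15908064) was also set apart at P7 by that library. It stood at 14.4, 16.7, 5.35, 5.64 and 3.56 in wild-type and 6.38, 3.93, 14.2, 8.35 and 4.60 in Setd1a+/- libraries at E14, at 12.0, 8.86, 13.2, 31.4 and 19.9 in wild-type and 17.8, 16.7, 24.0, 26.997 and 6.36 in Setd1a+/- libraries at E18, and at 23.3, 143, 27.5, 32.3 and 22.1 in wild-type and 39.2, 31.0, 26.9, 28.8 and 21.1 in Setd1a+/- libraries at P7. Without wild-type replicate 2 at P7, the wild-type mean was 26.3 ± 4.64 CPM (SD, n = 4). At P35 and P70 Calb1 held 107 to 123 and 109 to 119.8 CPM in wild-type libraries, narrow ranges that lay above all earlier values but 1. The wild-type step from E18 to P7 was called with all libraries (log2 fold change 1.54, SE 0.392, edgeR adjusted p = 0.000663) and not without replicate 2 (0.61, SE 0.321, adjusted p = 0.0887). From P7 to P35 Calb1 rose either way, by 1.21 (adjusted p = 0.00504) and, without replicate 2, by 2.12 on the log2 scale (adjusted p = 3.24e-07, edgeR). The wild-type step from E14 to E18 was 0.92 (adjusted p = 0.0447), just under 2-fold, and was called by limma-voom (1.08) and under 5 other alternatives, at up to 1.26, but without wild-type replicate 4 at E18 it was 0.58 (adjusted p = 0.231). In Setd1a+/- cortex the steps from E14 to E18 (1.30, adjusted p = 0.00549) and from P7 to P35 (2.06, adjusted p = 1.09e-05) were called by edgeR.

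Calb2 (ENSMUSG00000003657, chromosome 8, 110137502 to 110168210) was highest around birth. It stood at 17.9, 8.34, 15.7, 24.0 and 17.6 in wild-type and 19.2, 22.8, 8.08, 15.7 and 10.7 in Setd1a+/- libraries at E14, and at 58.5, 72.4, 20.8, 46.8 and 29.2 in wild-type and 59.2, 26.2, 29.3, 36.7 and 54.1 in Setd1a+/- libraries at E18. It stood at 81.9, 53.9, 27.9, 43.01 and 43.8 in wild-type and 21.8, 35.9, 24.9, 65.3 and 64.7 in Setd1a+/- libraries at P7. Libraries of the same group differed up to several-fold, and E18 and P7 overlapped. It then stood at 15.1, 13.2, 27.3, 51.5 and 12.7 in wild-type and 22.4, 12.4, 22.7, 16.6 and 12.6 in Setd1a+/- libraries at P35, and at 12.2, 16.2, 11.9, 36.5 and 10.4 in wild-type and 15.7, 13.4, 17.9, 39.1 and 19.4 in Setd1a+/- libraries at P70. Most values lay in the range of E14, but wild-type replicates 3 and 4 at P35 and replicate 4 of both genotypes at P70 stood higher. Calb2 rose from E14 to E18 (wild-type log2 fold change 1.45, SE 0.402, edgeR adjusted p = 0.00170) and fell from P7 to P35 (−1.06, SE 0.397, adjusted p = 0.0167, and −1.04 with adjusted p = 0.0271 without wild-type replicate 2 at P7). The step from P7 to P35 lost its call when wild-type replicate 1 at P7 or wild-type replicate 1, 2 or 5 at P35 was left out, with log2 fold changes of −0.81 for the first and −0.94, −0.91 and −0.90 for the others, and in Setd1a+/- cortex it was called (−1.30, adjusted p = 0.00429).

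Reln (ENSMUSG00000042453, chromosome 5, 21884454 to 22344702) encodes reelin, a secreted protein that guides the layering of cortical neurons, and was the only member with a lower level at P70 than at E14 by the test. Reln held 208 to 327 CPM in wild-type libraries at E14, 71.7 to 98.5 at P35 and 69.5 to 82.8 at P70. At E18 it stood at 459, 435, 258, 409.8 and 302 CPM in wild-type and 441, 245, 265, 356 and 413 in Setd1a+/- libraries, and at P7 at 312, 274, 224, 231 and 259 and 228, 249, 223, 288 and 299. All values up to P7 lay above all values from P35 on, and E18 had the widest spread. Reln fell from P7 to P35 (log2 fold change −1.63, SE 0.1403, edgeR adjusted p = 6.55e-14, and −1.60 without wild-type replicate 2 at P7), and from E14 to P70 the log2 fold change was −1.80 (adjusted p = 7.46e-16). The Cajal-Retzius list has 7 genes, led by Cacna2d2, with none at 0 throughout. Its summed CPM in replicates 1 to 5 at E14 was 199, 135, 124, 129 and 115 in wild-type and 173, 116, 151, 151 and 135 in Setd1a+/- libraries, and at E18 127, 126, 109.8, 155 and 156.8 and 149, 126, 139.9, 118 and 117. At P7 the sums were 107, 292, 77.4, 92.7 and 98.3 in wild-type and 91.9, 96.3, 81.8, 98.4 and 98.2 in Setd1a+/- libraries. They were 84.0, 95.3, 87.0, 87.0 and 84.1 and 77.2, 98.0, 83.9, 93.0 and 94.1 at P35, and 101, 95.9, 57.4, 86.8 and 83.0 and 75.7, 90.7, 93.1, 81.4 and 99.8 at P70. The sum was lower after P7 than at E14 in every library. Lhx1, Lhx5 and Trp73, named for the largest changes in the list, were lower in wild-type cortex at P70 than at E14 by log2 fold changes of −6.98, −6.80 and −4.23 (edgeR adjusted p = 4.53e-07, 4.25e-10 and 4.84e-18). The wild-type mean of the sum moved less, from 141 to 84.9 CPM. Cacna2d2 averaged 68.5 CPM over all libraries, and Ndnf is also on the list of other interneuron genes. The sum after P7 therefore need not follow Cajal-Retzius cells. The part of Cajal-Retzius cells in the Reln values was not tested.

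The libraries highest in olfactory bulb markers were also high in Calb2 from E18 on, and in Reln from E18 to P35. The list has 8 genes, of which Eomes is the most abundant over all libraries at 53.0 CPM and none is at 0 throughout. Their summed CPM in replicates 1 to 5 at E18 was 321, 328, 77.1, 166 and 79.9 in wild-type and 263, 62.0, 57.7, 178 and 257 in Setd1a+/- libraries. At P7 the sums were 314, 36.3, 61.0, 131.99 and 159.1 and 41.5, 82.7, 40.1, 209.5 and 209. At E18 the 4 highest sums were in wild-type replicates 1 and 2 and Setd1a+/- replicates 1 and 5, and so were the 4 highest values of Calb2 and of Reln. At P7 the 3 highest of all 3 measures were in wild-type replicate 1 and Setd1a+/- replicates 4 and 5, whereas wild-type replicate 2 was the lowest in the list and the fourth highest in Calb2 and in Reln. The sums were 26.5, 19.7, 61.8, 135 and 23.4 in wild-type and 35.8, 21.7, 35.3, 32.6 and 19.8 in Setd1a+/- libraries at P35, and 24.7, 30.6, 27.1, 94.9 and 18.9 and 29.3, 26.5, 34.1, 94.3 and 37.7 at P70. At P35, wild-type replicate 4 was the highest of the 10 libraries for 7 of the 8 markers, and at P70 replicate 4 of each genotype was the highest for 4 of them. These are the libraries in which Calb2 was highest at those ages, and at P35 wild-type replicates 3 and 4 were the highest in the list, in Calb2 and in Reln. At P70 Reln stood at 82.8, 80.6, 69.5, 77.9 and 74.3 CPM in wild-type and 80.8, 86.1, 86.7, 90.5 and 87.4 in Setd1a+/- libraries, so that of the 2 libraries highest in the list, wild-type replicate 4 was below most others in Reln and Setd1a+/- replicate 4 was the highest. At E14 the sums were 164.4, 194.5, 233, 234 and 248 and 238, 232, 211, 225 and 210.0, and the highest library was neither the highest in Calb2 nor in Reln. Eomes did not lead the list at every age. At P7 its median was 15.8 CPM in the 9 libraries other than wild-type replicate 2, against 84.1 for Cdhr1. Group means of the whole list were 29.0 to 53.2 CPM at P35 and P70. The mean of 53.0 CPM for Eomes thus comes mostly from E14 and E18. The part of olfactory bulb tissue in the embryonic sums, or in the Calb2 and Reln values, was not tested.

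Across the list, the wild-type steps from E14 to E18, E18 to P7 and P7 to P35 called 4, 4 and 8 of the 10 genes at an edgeR adjusted p under 0.05 and at least 2-fold, and limma-voom called 5, 4 and 9. Of all tested genes, 16.4%, 15.9% and 19.2% were called at these steps. Vip, Npy, Cck and Calb2 rose at the first step. Pvalb, Vip, Cck and Calb1 rose at the second, which left 3 genes, without Calb1, when wild-type replicate 2 at P7 was left out, where 17.2% of genes were called. At the third, Pvalb, Vip, Cck, Calb1, Gad1 and Gad2 rose and Calb2 and Reln fell, and without that library the counts in each direction were the same. The median log2 fold change of the 10 genes was 0.83 at the first step, 0.37 at the second and 1.25 at the third, against −0.01, 0.00 and −0.01 over all tested genes. With Vip at its lower bound in place of its fitted value, the first median was also 0.83. From P35 to P70, edgeR called 0 of the 10 genes, against 0.0796% of all tested genes, with 0 at an unadjusted p under 0.05 and 0 by DESeq2 or limma-voom. The median of that step was 0.02 against 0.00. From E14 to P70, 7 genes rose and 1 fell, against 46.7% of all tested genes called in either direction, and the median was 2.33 against 0.00. In Setd1a+/- cortex the same steps called 5, 2, 8 and 0 genes, where 17.2%, 16.4%, 19.6% and 0.202% of tested genes were called, and from E14 to P70 it called 8, against 46.2%. Whether a single step differed between genotypes was not tested apart from the joint interaction test.

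**Figure D3:**
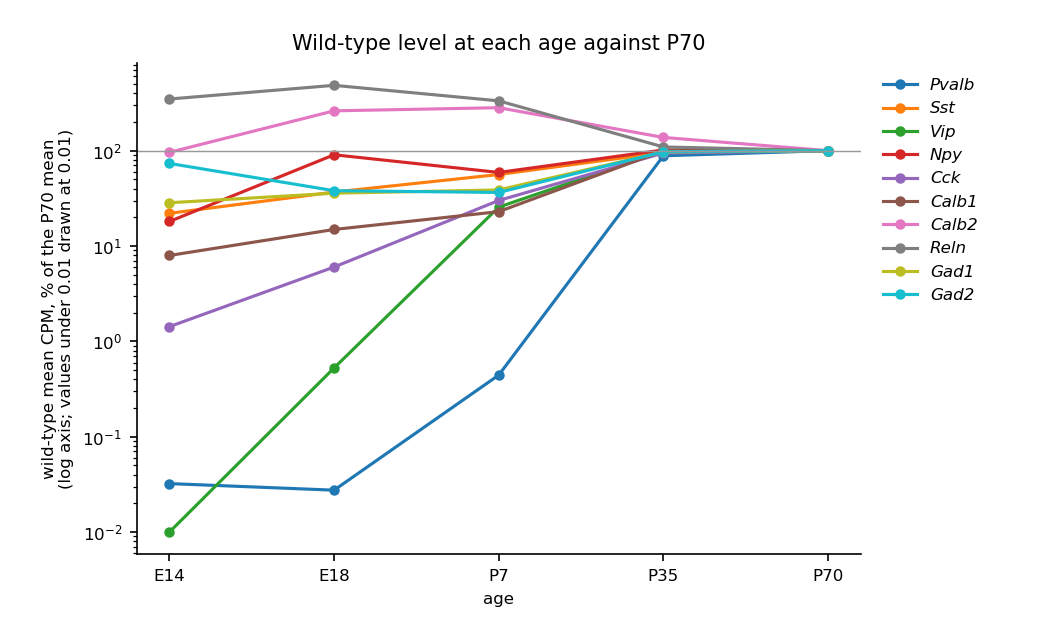
Mean CPM of each gene in wild-type cortex as a percent of its mean at P70 (log axis), by age, with the P7 mean taken without replicate 2 and values under 0.01 drawn at 0.01. Pvalb stands at 0.443 percent of its P70 mean at P7 and at 88.3 percent at P35.

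Per kilobase of exon, the order of the 10 genes changed with age. At E14 the wild-type mean RPKM was highest for Sst at 53.1, followed by Gad2 (26.0), Npy (19.1), Gad1 (12.8), Reln (11.3), Calb2 (9.59), Cck (4.00), Calb1 (1.88) and Pvalb (0.0103) and Vip at 0. Of the neighbours in that order, only Calb1 and Pvalb had ranges over the 5 libraries that did not overlap. At E18 the order was Npy (95.7), Sst (88.6), Calb2 (26.1), Cck (16.9), Gad1 (16.2), Reln (15.7), Gad2 (13.4), Calb1 (3.53), Vip (0.0510) and Pvalb (0.00881), with gaps between ranges only after Sst, Gad2 and Calb1. At P7 it was Sst (134), Cck (74.6), Npy (55.0), Calb2 (28.7), Gad1 (17.8), Gad2 (13.3), Reln (10.9), Calb1 (10.2), Pvalb (2.37) and Vip (2.21), with a gap only after Sst. When wild-type replicate 2 was left out, Calb1 stood at 5.43, Vip at 2.48 and Pvalb at 0.142 RPKM at P7, so that Vip lay above Pvalb, and gaps followed Sst, Cck, Npy, Reln, Calb1 and Vip. By P35 Cck led at 265 RPKM, then Sst (231), Npy (108), Gad1 (43.8), Gad2 (34.4), Pvalb (28.3), Calb1 (23.6), Calb2 (13.8), Vip (9.63) and Reln (3.55), with gaps after Cck, Sst, Npy and Vip. At P70 the order was Cck (280.4), Sst (241), Npy (106), Gad1 (45.2), Gad2 (35.4), Pvalb (32.0), Calb1 (23.7), Calb2 (9.996), Vip (9.695) and Reln (3.25), and the ranges of Cck and Sst overlapped, with gaps after Sst, Npy, Pvalb, Calb1 and Vip. The order of all 10 genes was the same at P35 and P70. Reln was last at both of these ages. Its exons span 23738 bases against 566 for Npy, and its CPM there was also below that of Cck, Gad1, Gad2, Sst and Calb1.

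**Figure D4:**
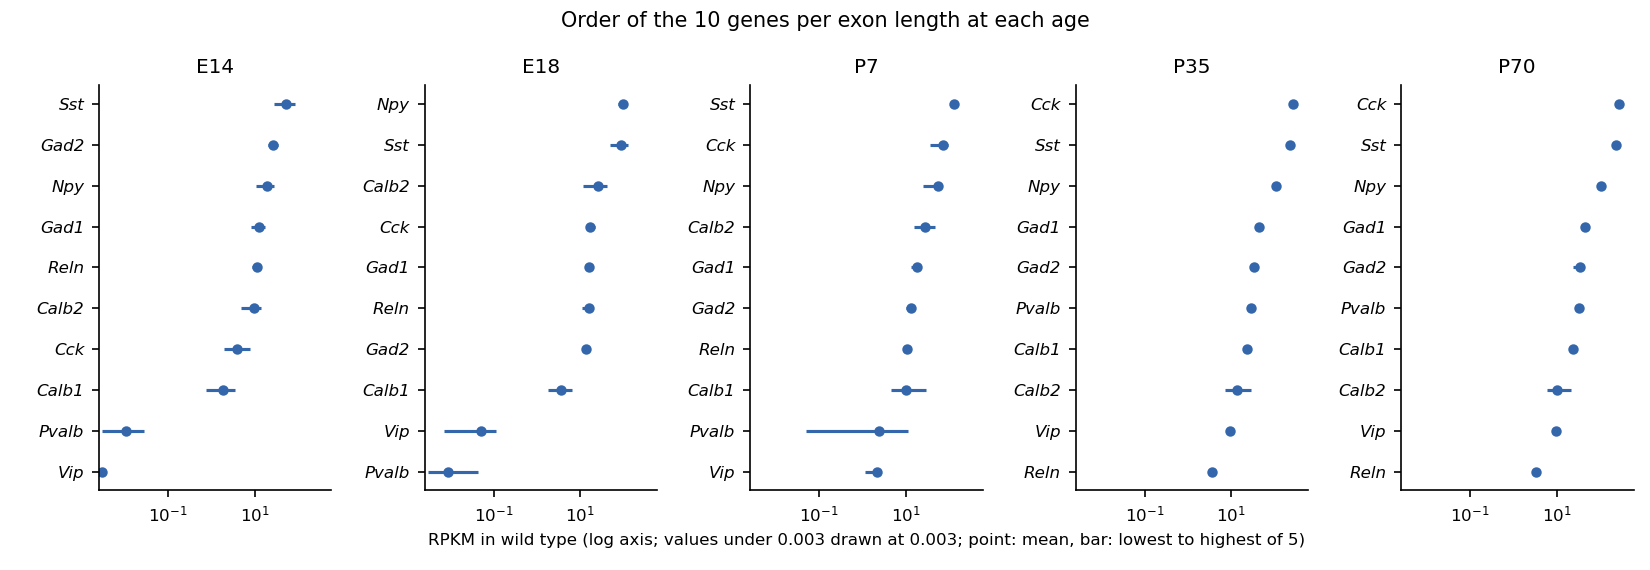
Wild-type mean and range of RPKM of the 10 genes at each age (log axis), with values under 0.003 drawn at 0.003 and the P7 panel including replicate 2. Cck moves from 4.00 RPKM at E14 to the top of the order at P35 and P70, and Reln to the bottom.

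The count of members called for genotype was near the share over all tested genes. With age as a covariate, edgeR called 0 of the 10 genes at an adjusted p under 0.05, against 4.43% of all tested genes (723, of which 612 were lower in Setd1a+/- cortex), with 0 at an unadjusted p under 0.05 and 0 called by DESeq2 or limma-voom. The log2 fold change was above 0 for 5 genes and below 0 for 5, with a median of −0.02 against 0.00 over all tested genes. Gad1 was at −0.08 (95% confidence interval −0.21 to 0.04), Gad2 at 0.02 (−0.12 to 0.16) and Reln at 0.01 (−0.11 to 0.14). Sst was at 0.06 (−0.16 to 0.27), Npy at 0.06 (−0.11 to 0.23), Cck at −0.06 (−0.27 to 0.15) and Vip at 0.15 (−0.03 to 0.34). The intervals were wider for Calb2, at −0.14 (−0.49 to 0.21), and for Calb1, at −0.15 (−0.50 to 0.20) with all libraries and 0.03 (−0.23 to 0.30) without wild-type replicate 2 at P7. Pvalb was furthest from 0, at −0.68 (−1.39 to 0.03, SE 0.355, edgeR adjusted p = 0.380), and stood at −0.10 (−0.32 to 0.12, SE 0.110, adjusted p = 0.811) without that library, where 4.34% of all tested genes and again 0 of the 10 were called. A difference of 2-fold over all ages lies outside each of these intervals except that of Pvalb with all libraries. Smaller differences lie inside the intervals and cannot be told apart from none.

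Age by age, edgeR called 0, 0, 1, 0 and 0 of the 10 genes at E14, E18, P7, P35 and P70, against 0.129%, 0.11%, 0.735%, 0% and 0.233% of all tested genes, and the counts at an unadjusted p under 0.05 were also 0, 0, 1, 0 and 0. The share at E14 rests on single libraries, and was 4.52% without wild-type replicate 5, 1 of the 2 libraries with Xist RNA, where again 0 of the 10 were called. DESeq2 called Pvalb at P7 and no member at the other ages, with 2 genes, Pvalb and Vip, at an unadjusted p under 0.05 at E18. With limma-voom, 0 members were called at any age and Vip at P7 alone had an unadjusted p under 0.05. The member medians from E14 to P70 were −0.15, 0.11, −0.02, 0.00 and 0.07, against −0.03, 0.02, 0.00, 0.00 and 0.00 over all tested genes. The 1 call was Pvalb at P7 (log2 fold change −4.49, SE 0.873, edgeR adjusted p = 0.00609), and without wild-type replicate 2 it was −0.43 (SE 0.492, adjusted p = 1.00), with 0 of the 10 genes called against 0.0427% of all tested genes. The other 4 wild-type libraries held 0.0514 to 0.224 CPM against 0.0263 to 0.209 in Setd1a+/- libraries. The age by genotype interaction called 0 of the 10 genes, against 0% of all tested genes, with Pvalb alone at an unadjusted p under 0.05 (edgeR adjusted p = 0.367, and adjusted p = 0.666 without that library). Without that library 0.0061% of all tested genes and 0 of the 10 were called. DESeq2 called Pvalb for the interaction and limma-voom called none. Calb1 at P7 was −0.76 (adjusted p = 0.579) and 0.16 without replicate 2. Npy at E14 was −0.35 (SE 0.200, adjusted p = 0.533, edgeR), and was called only when wild-type replicate 2 at P7 and both libraries with Xist counts were left out together, at −0.51 (adjusted p = 0.0444), a choice made after seeing the data. Without Setd1a+/- replicate 3 or wild-type replicate 5 at E14 it was −0.51 and −0.50 and not called (adjusted p = 0.183 and 0.116), and without wild-type replicate 2 at E14 it was −0.18. With only wild-type replicate 2 at P7 left out it was −0.35, with an unadjusted p under 0.05 (adjusted p = 0.382). At E18, Pvalb was 2.41 with an interval of −2.88 to 7.70 on 2 against 13 counts, and 2.41 (0.64 to 4.18, adjusted p = 0.213) without replicate 2 at P7, which shares the estimate of spread. Without that library 0.293% of all tested genes were called at E18 and 0.0305% at P35, and 0 of the 10 at either age.

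At each age, the libraries of both genotypes overlapped for all 10 genes, so that 0 of 10 did not overlap at E14, E18, P7, P35 and P70, against 0.784%, 2.22%, 2.22%, 2.25% and 1.79% of all tested genes. Without wild-type replicate 2 the count at P7 was also 0, against 4.07%. The number of genes with a log2 fold change above 0 was 3, 7, 4, 5 and 7 of 10 from E14 to P70. Over the 5 ages, the log2 fold change of Gad1 ran from −0.17 to 0.03, that of Reln from −0.12 to 0.16, of Sst from −0.11 to 0.12 and of Cck from −0.18 to 0.02. That of Gad2 ran from −0.18 to 0.13, of Npy from −0.35 to 0.26 and of Calb2 from −0.47 to 0.27. The highest values of Npy and Cck were at P7, and were 0.08 and −0.15 there without wild-type replicate 2. Several ends of these ranges rest on single libraries. Calb2 was 0.02 at P35 without wild-type replicate 4, and at P70 it was 0.74 without wild-type replicate 4 and −0.07 without Setd1a+/- replicate 4. Cck at E14 was −0.75 without Setd1a+/- replicate 3 and 0.21 without wild-type replicate 2, and Sst at E14 was −0.47 and 0.12 without the same libraries. None of these 7 genes had an adjusted p under 0.05 at any age in edgeR with all libraries. Vip was 0.70 at E18 (−0.11 to 1.52), 0.28 at P7 (−0.06 to 0.63; 0.12 without wild-type replicate 2), −0.06 at P35 and 0.15 at P70, and at E14 it rests on 0 against 3 counts. At E18, Vip was 1.22 without wild-type replicate 3 and 0.43 without wild-type replicate 5. At P70, it was 0.25 without wild-type replicate 3 and 0.09 without wild-type replicate 2. Pvalb was 1.49 at E14 (−4.50 to 7.49), on 2 against 7 counts, and −0.23 at P70 (−1.18 to 0.71). Without wild-type replicate 3 at P70, Pvalb was −0.14 there. At P35, Pvalb had an interval of −0.99 to 0.90 with all libraries and −0.33 to 0.25 without replicate 2 at P7.

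**Figure D5:**
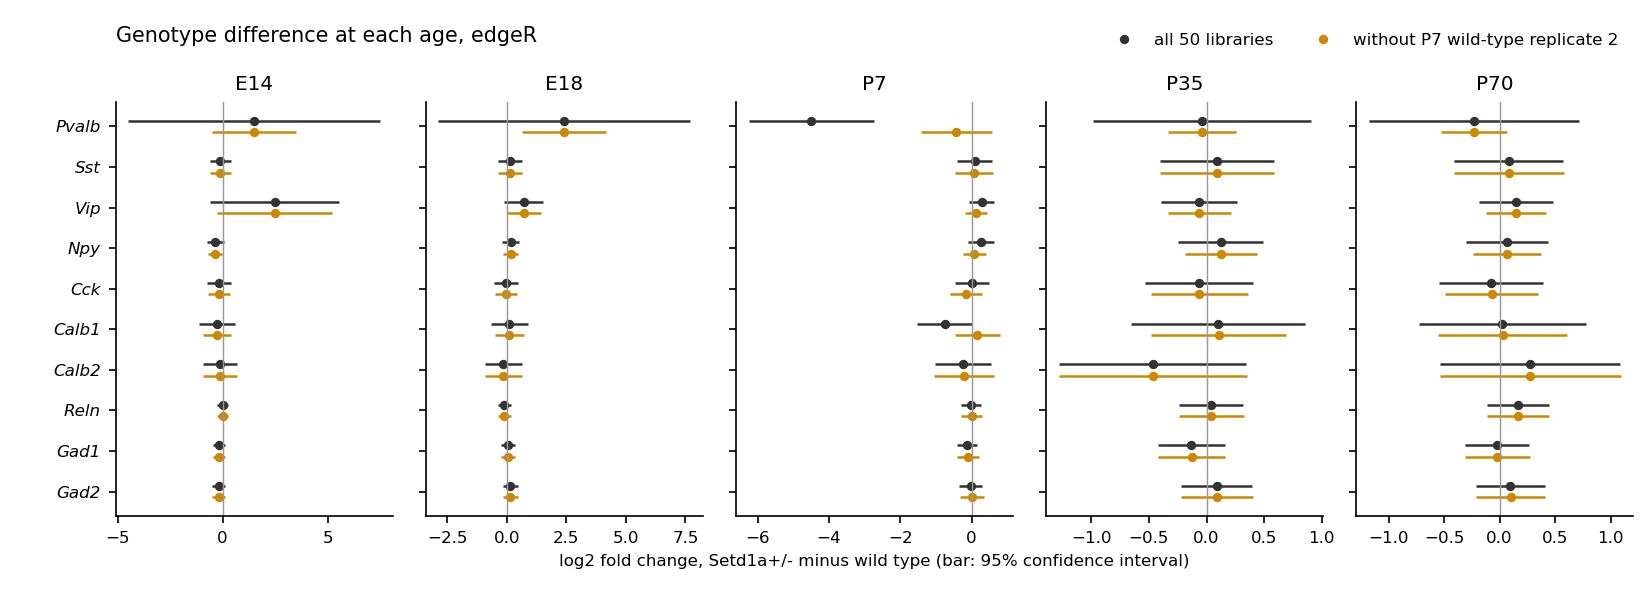
Log2 fold change of each gene in Setd1a+/- against wild-type cortex with its 95 percent confidence interval, at each of the 5 ages, with all libraries and without wild-type replicate 2 at P7; the axes differ between panels. Pvalb at P7 moves from −4.49 to −0.43 when that library is left out.

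Libraries of 1 group differed more in most of these genes than in the typical tested gene. The mean within-group SD of log2 CPM was 0.623 for Calb2, at the 99.5 percentile of tested genes, and 0.481 for Calb1, at the 98.6 percentile, whereas the median of all tested genes was 0.133. Cck and Sst stood at 0.318 each, Pvalb at 0.309 and Npy at 0.260. Gad2 and Gad1 stood at 0.245 and 0.222, Reln at 0.201 and Vip at 0.179. When wild-type replicate 2 at P7 was left out, Pvalb stood at 0.137, Vip at 0.148, Npy at 0.220, Cck at 0.274 and Calb1 at 0.395. The median over all tested genes was then 0.126. The values of Pvalb and Vip cannot be ranked against the others, since the 0.5 CPM added before log2 exceeds all their values at E14 and E18. In CPM without that addition, the SD in wild-type libraries at E18 was 224% of the mean for Pvalb and 79.3% for Vip. At E14, the 3 highest values of Sst, Npy, Cck and Calb1 were all in wild-type replicates 1 and 2 and Setd1a+/- replicate 3. Calb2, in contrast, was lowest at E14 in Setd1a+/- replicate 3 (8.08 CPM) and next lowest in wild-type replicate 2 (8.34 CPM). Cck stood at 6.27, 10.1, 3.57, 3.51 and 2.61 CPM in wild-type and 2.93, 3.35, 10.6, 3.61 and 2.44 in Setd1a+/- libraries at E14. The list of 18 interneuron lineage transcription factors, led by Zeb2, with none at 0 throughout, summed to 2610.2, 2426, 2036, 1981 and 1721 CPM in wild-type and 2045, 1552, 2342, 2028 and 1865 in Setd1a+/- libraries at E14, and its 3 highest sums were in the same libraries. The 8 markers of the medial ganglionic eminence and basal forebrain, led by Zic1, summed to 564, 139.7, 331, 479 and 416 and 603, 419, 239, 453 and 479.9 CPM, with wild-type replicate 2 the lowest and Setd1a+/- replicate 3 the next lowest. These sums include Zic1, which averaged 117 CPM over the whole series. They do not show how the other markers of the list stood. The 8 choroid plexus markers, led by Ttr, summed to 13.2, 22.7, 368, 255 and 397 and 74.7, 15.1, 178, 431 and 461 CPM, so that these libraries did not stand together in it. The part of the dissected region in these values was not tested.

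At P70, 1 wild-type library stood apart in several of the genes. In replicate 3, Pvalb (41.8 CPM), Vip (41.7) and Cck (453) were the highest of the 10 libraries of that age, and Gad2 (143), Sst (157.2) and Reln (69.5) were the lowest. The 12 markers of striatal spiny neurons, led by Ppp1r1b, with none at 0 throughout, summed at P70 to 1627, 1740.0, 495, 1372 and 1205 CPM in wild-type and 826, 1347, 2039, 804 and 1572 in Setd1a+/- libraries. Replicate 3 was the lowest of the 10 libraries for all 12 of these markers, and the highest for 7 of 10 cortical excitatory markers. Gad2 at P70 stood at 245, 243, 143, 216 and 191.7 CPM in wild-type and 189, 219, 255, 200.03 and 249 in Setd1a+/- libraries. The lowest Gad2 value and the lowest striatal sum were in the same library, and the part of striatal tissue in the Gad2 values was not tested.

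Other genes of the same pathways were described from lists and counted in the same fit. Of 6 other genes for GABA loading, uptake and breakdown, 6 rose in wild-type cortex from E14 to P70, with a median log2 fold change of 1.36, and 0 were called for genotype with age as covariate. They included the GABA transporter Slc6a11 (2.90, SE 0.145, adjusted p = 8.89e-23, edgeR) and the catabolic enzyme Abat (1.78, SE 0.129, adjusted p = 4.49e-17). Of 18 other interneuron peptides and subtype genes, 12 rose and 1 fell, led by Lamp5 (8.77, SE 0.247, adjusted p = 4.10e-32, edgeR) and Crhbp (6.73, SE 0.333, adjusted p = 5.57e-23). In that list Cnr1, the cannabinoid receptor, was called for genotype (log2 fold change 0.10, SE 0.0308, adjusted p = 0.0442), 1 of 18 against 4.43% of all tested genes. Of 10 fast-spiking channels and synaptic genes of Pvalb cells, 8 rose, among them Kcnab1 (4.82, SE 0.210, adjusted p = 4.91e-25), Kcna2 (4.60, SE 0.1396, adjusted p = 6.07e-31) and Syt2 (4.18, SE 0.5001, adjusted p = 2.65e-10, edgeR), and 0 were called for genotype with age as covariate. Of 13 receptors for somatostatin, VIP, NPY and CCK, 9 rose and 2 fell, with Cckbr (7.18, SE 0.250, adjusted p = 1.05e-28) and Cckar (−5.48, SE 0.811, adjusted p = 4.67e-08, edgeR) in opposite directions. Of 7 Reelin receptors and signalling genes, 0 rose and 2 fell, the receptor gene Lrp8 (−1.81, SE 0.0828, adjusted p = 2.63e-24) and Crkl (−1.45, SE 0.0826, adjusted p = 1.03e-20, edgeR). Of 11 prohormone processing genes 10 rose, with Vgf (5.86, SE 0.193, adjusted p = 1.37e-29) and the convertases Pcsk2 (5.04, SE 0.200, adjusted p = 1.55e-26) and Pcsk1 (4.99, SE 0.188, adjusted p = 1.90e-27, edgeR). Of 15 other EF-hand genes 13 rose, and of the 18 lineage transcription factors 0 rose and 14 fell, among them Nkx2-1 (−6.00, SE 0.603, adjusted p = 1.91e-12), Dlx2 (−4.28, SE 0.267, adjusted p = 2.60e-19) and Dlx1 (−3.13, SE 0.237, adjusted p = 2.09e-16, edgeR). The share of all tested genes called from E14 to P70 was 46.7%, with 4309 higher and 3316 lower.

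The genes whose wild-type course over the 5 age means was nearest to each member were found among 14339 tested genes, by the root mean square difference of centred log2 CPM. For Pvalb the nearest was Scn4b (0.484), whose wild-type means were 0.470, 0.989, 3.86, 231 and 263 CPM from E14 to P70, followed by Mag (0.657), and without wild-type replicate 2 at P7 the nearest was Igfn1 (0.505). For Vip it was Gpr37l1 (0.526). Other members had much closer neighbours, among them Enpp5 (0.0292) for Sst, Ifitm3 (0.0944) for Npy, Neurl1a (0.0269) for Calb1, Mrc1 (0.0934) for Calb2, Rev3l (0.0448) for Reln, March10 (0.0301) for Gad1 and D3Ertd751e (0.0722) for Gad2. Without that library, the nearest changed to Slfn5 (0.137) for Npy, Ddo (0.0901) for Calb1 and Cd34 for Gad1. Among the members themselves, the closest pair was Sst and Gad1 (0.302), then Gad1 and Gad2 (0.557) and Sst and Npy (0.577), and the farthest was Pvalb and Reln (5.02).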

How the data were processed

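Messenger RNA of frontal cortex was measured in 50 libraries, grouped by age, genotype and replicate number from the labels. The authors trimmed reads with Trimmomatic, checked them with FastQC, aligned them to GRCm38 with STAR and counted fragments on exons with featureCounts (1.4.6-p2), and the deposited values are raw counts per gene, with no normalization and without strand. Where exons of different genes overlap, the fragment was given to all of them, which touches 1.04% of the exonic bases of Reln. For Slc32a1 it touches 24.9% of the exonic bases, shared with Gm14205. Counting error limits Pvalb and Vip before birth, and intervals and floors cover counting error only.

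Protein-coding genes that passed edgeR's filterByExpr (about 10 counts in a library of median size, in 5 or more libraries) were tested. Counts were scaled by TMM and fitted by the quasi-likelihood method of edgeR 4.0.16 (R 4.3.3), with p adjusted by the Benjamini-Hochberg method over all tested genes. Genotype was fitted with age as a covariate, the interaction as a joint test of 4 terms, and single ages and steps between ages from the means of the 10 groups. Genes were called at an adjusted p under 0.05, and steps between ages also needed an absolute log2 fold change of at least 1. All tests were two-sided. The models were tested on simulated data.

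The 10 members and the other lists were chosen with earlier results of these data known. All members were named in every comparison. Of other lists, the genes called for genotype, the most abundant gene and up to 3 with the largest wild-type log2 fold change from E14 to P70 were named, and for each member the 3 genes with the nearest wild-type profile, of which for most members the first is printed. En2, Lhx8, Ms4a15, Sim1 and other genes given for single libraries were named after their values were seen. The nearest profiles used log2 of CPM plus 0.05, and spreads log2 of CPM plus 0.5.

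The alternatives were DESeq2 1.42.0, limma-voom (limma 3.58.1), DESeq2's size factors, library size only and upper-quartile scaling, 2 other filters, testing all annotated genes, adding RNA integrity to the model, blocking on replicate number, leaving out both libraries with Xist counts, and leaving out each library in turn. Leaving out those 2 libraries and wild-type replicate 2 at P7 together was chosen after seeing the data. Sequences came from RefSeq (GRCm38.p6) and from GENCODE vM21 on GRCm38. Tables and figures were made with Python 3.11.15, pandas 2.3.3, numpy 2.4.6, scipy 1.17.1 and matplotlib 3.10.9.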

Additional observations from a re-analysis of the deposited data

Results flagged for a closer look

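In 9 of 100 pairs of a member and a group, 1 library stood far from the other 4, by a gap of more than 0.71 of the whole range of the group. Chance alone gives this in about 1 in 20 groups of independent, normally distributed values. The 100 pairs share libraries and their distribution was not checked, so these rates do not test for an excess. The 9 pairs fell on 6 of the 10 members, and 3 of them on wild-type replicate 2 at P7. That library held 11.7 CPM of Pvalb against 0.0514 to 0.224 in the other wild-type libraries of its age, 143 CPM of Calb1 against 22.1 to 32.3, and 47.3 CPM of Cck against 104 to 122. Calb2 was high in replicate 4 at P70 in both genotypes, at 36.5 CPM against 10.4 to 16.2 in wild-type and 39.1 CPM against 13.4 to 19.4 in Setd1a+/- libraries. At E14, Cck in Setd1a+/- replicate 3 stood at 10.6 CPM against 2.44 to 3.61. At E18, Gad2 in wild-type replicate 5 stood at 101.9 CPM against 71.0 to 76.9, and Pvalb in wild-type replicate 4 at 0.0459 CPM, which is 2 counts, against 0. The rate by chance does not apply to that pair, where any count in a single library meets the rule, nor to Vip in wild-type libraries at E14, with 0 counts throughout. At P35, Npy in wild-type replicate 2 stood at 68.0 CPM against 57.9 to 60.6. No cause of these values was tested.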

How the results depend on the processing

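Of 6200 member log2 fold changes recomputed under 63 alternatives, 6068 kept their direction and their side of the threshold, 10 lost the call, 13 gained one and 109, called in neither setting, changed sign. The number of members called stayed at 0 under all alternatives for genotype with age as covariate, at E18, P35 and P70, and for the step from P35 to P70, leaving out each library in turn included. For the interaction it was 1 (Pvalb) with DESeq2 and 0 to 0 with single libraries left out. At E14 it was 0 to 0 with single libraries left out and 1 (Npy) without the P7 library and both libraries with Xist counts. At P7 the 1 member, Pvalb, was lost with limma-voom (log2 fold change −1.77, adjusted p = 0.691), with the replicate block (−3.64, adjusted p = 0.0593) and with 3 libraries left out (−0.43, adjusted p = 1), each leaving 0, and single libraries gave 0 to 1. The wild-type steps ranged from 4 to 5 members from E14 to E18, from 3 to 4 from E18 to P7 and from 7 to 9 from P7 to P35 when single libraries were left out; Npy joined the last step at 1.04, 1.07 and 1.04 without wild-type replicate 3, 4 or 5 at P7, and at 1.07 with limma-voom, which called 9. The labels do not say whether a replicate number pairs libraries, and the methods mention littermates after birth without naming pairs. Same-numbered pairs correlated over 0.1 in 9 of 25, from −0.207 to 0.46, and 7 wild-type libraries correlated best with their own number. Libraries also differed in regional markers, so these correlations cannot settle whether the numbers pair them. The block was run for the genotype and interaction tests only, since it cannot hold steps between ages, and changed no other member count there. Over all tested genes, the genotype count of 723 ran from 639 to 823, with 785 under the block. The interaction count of 0 became 21 with DESeq2, 3 with the block, 50 with 3 libraries left out and 0 to 5 with single ones. At E14 the count of 21 became 114 with DESeq2, 3 with library size only, 1164 with 3 libraries left out and 1 to 741 with single ones, the most without wild-type replicate 5. At E18, 18 became 111 with DESeq2, 1 with RNA integrity, 37 with the block and 7 to 150 with single libraries left out, and it was 1.17% of tested genes with 3 left out, against 0.11% with all. At P7, 120 became 16 with limma-voom, 20 with the block, 9 with 3 libraries left out and 7 without wild-type replicate 2, and at most 1.3% of tested genes were called with a single library left out, against 0.735% with all. At P35, 0 became 11 with DESeq2 and 3 with the block, and at P70, 38 became 77 with DESeq2 and 8 to 92 with single libraries left out. The steps of 2680, 2598 and 3139 genes became 1567, 1546 and 1857 under a minimum of 10 CPM and 4019, 4044 and 4763 with all annotated genes, since other numbers of genes were tested, and 13 from P35 to P70 became 3 and 19. That last count was 20 with 3 libraries left out. Scaling by library size only put the median of all genes from P7 to P35 at −0.11. Where no cause is named, the cause was not tested, and depth limits Pvalb and Vip before birth.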
